A study of Homo sapiens with 12 samples.

Results

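The heat shock chaperones measured here are 10 genes of the 26258 in the deposited table, taken by name: the cytosolic HSP70 proteins *HSPA1A*, *HSPA1B* and *HSPA8*, their partners *HSPH1*, *BAG3* and *DNAJB1*, the cytosolic *HSP90AA1*, the small heat shock protein *HSPB1*, and the mitochondrial pair *HSPD1* and *HSPE1*. All 10 were found by their Entrez identifiers and all 10 reached the level needed for testing, as did 13515 genes of the whole table. Chaperones bind proteins that are unfolded or newly made and keep them from aggregating until they fold or are degraded. HSP70 proteins do this in cycles of ATP hydrolysis, with HSP40 proteins such as DNAJB1 bringing the substrate and nucleotide exchange factors such as HSPH1 and BAG3 releasing it, and HSP90 takes over a set of kinases and receptors at a later step. When unfolded protein accumulates, the transcription factor HSF1 is released from chaperones, forms trimers and binds heat shock elements, inverted repeats of GAA, in front of these genes. In hepatocellular carcinoma, several of these proteins are commonly found at raised levels.

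RNA was sequenced from HLE cells, an established human hepatocellular carcinoma line, transfected with siRNA of 1 of 3 kinds: a control (siCtrl), a mix that targets YAP plus TAZ (siY/T), or one that targets ATF4 (siATF4). YAP and TAZ are the transcriptional coactivators restrained by the Hippo pathway, and ATF4 is the transcription factor of the integrated stress response. Each transfection then received either 5 µM of the kinase inhibitor Sorafenib or its vehicle DMSO (Srf for the drug, with the dose from the sample labels, which give no time, whereas the study's text gives a time and another dose), so that every group carried an siRNA and either the drug or its vehicle. The 6 groups held 2 libraries each, 12 in all, from 1 cell line with transient knockdown, and the labels only number them. The study's methods call its replicates biological without saying what separated them, so the p-values measure the spread between these libraries.

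The libraries held 41408348 to 53619732 reads on genes with a median of 47939445, and levels are given as CPM, reads per 1000000 reads on genes, of which 1 read made up between 0.0186 and 0.0241. Because CPM is a share of all mRNA, less of a transcript in each cell and more of all other mRNA cannot be told apart. The siRNAs lowered their targets, with log2 fold changes of -2.41 in DMSO and -2.47 in Srf for *YAP1*, -1.50 and -1.52 for *WWTR1* (TAZ), and -1.33 and -2.47 for *ATF4*. *ATF4* itself was raised by Sorafenib in siCtrl cells (log2 fold change 0.97). The depletions were not separate at the mRNA level, since *WWTR1* was also lowered by siATF4 in DMSO (-0.70) and *ATF4* by siY/T in Srf (-0.63). Of 8 hepatocyte markers only *SERPINA1* reached 1 CPM in any library, the 8 summed to between 0.0594 and 2.59 CPM, and *ALB* and *HNF4A* stayed at or below 0.0214 CPM, so the defining hepatocyte markers were practically absent from this liver cancer line. The epithelial keratins *KRT8* (655 to 2558 CPM) and *KRT18* (312 to 1089 CPM) and the mesenchymal *VIM* (1952 to 2916 CPM) were abundant. The epithelial *EPCAM* (0.15 to 0.701 CPM) and *CDH1* (0.0396 to 7.93 CPM) and the mesenchymal *CDH2* (3.77 to 6.92 CPM) were low. The leukocyte marker *PTPRC* and the endothelial marker *PECAM1* did not pass 0.0379 and 0.0403 CPM, whereas the fibroblast marker *COL1A1* had between 5.49 and 52.7 CPM.

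The control regions of these genes are shown first, since heat shock elements in front of a gene are what HSF1 binds. RefSeq promoter windows, 250 bases before to 50 bases after each transcript start on GRCh38.p14, were given for all 10 genes, 14 windows in all because *DNAJB1*, *HSP90AA1* and *HSPD1* have several starts. A long heat shock element, 3 units of GAA and TTC in turn with 2 bases between units, was found in windows of 3 genes, *HSPA8*, *HSP90AA1* and *HSPD1*, which is 21.4% of the 14 windows against 0.490% of all 35116 windows. The short element of 2 units, GAANNTTC or TTCNNGAA, which is contained in every long one, was found in 57.1% of the windows, covering 7 genes, against 13.5% of all windows. The windows of *HSPH1*, *BAG3* and *HSPE1* held neither on either strand. The 7 stretches below run 5′ to 3′ on the strand of the gene, with each short element in capitals, and lie before the transcript start. *HSPA8* has another long element farther upstream that is not printed.
HSPA1A: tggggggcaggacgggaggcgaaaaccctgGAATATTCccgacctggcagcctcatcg
HSPA1B: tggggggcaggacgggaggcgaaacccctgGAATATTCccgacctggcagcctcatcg
HSPA8: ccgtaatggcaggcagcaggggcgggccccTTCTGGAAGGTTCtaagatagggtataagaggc
DNAJB1: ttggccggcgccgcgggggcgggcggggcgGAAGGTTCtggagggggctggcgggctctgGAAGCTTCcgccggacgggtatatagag
HSP90AA1: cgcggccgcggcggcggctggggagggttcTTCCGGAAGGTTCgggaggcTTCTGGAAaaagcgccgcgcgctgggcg
HSPB1: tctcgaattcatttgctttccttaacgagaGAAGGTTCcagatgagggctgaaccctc
HSPD1: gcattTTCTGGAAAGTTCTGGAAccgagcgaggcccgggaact

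On GRCh38.p14 the stretches are chr6:31815407-31815464 (plus strand) for *HSPA1A*, chr6:31827603-31827660 (plus) for *HSPA1B*, chr11:123062159-123062221 (minus) for *HSPA8* and chr19:14518417-14518504 (minus) for *DNAJB1*. Those of *HSP90AA1*, *HSPB1* and *HSPD1* are chr14:102087085-102087162 (minus), chr7:76302461-76302518 (plus) and chr2:197500048-197500090 (minus). The stretches of *HSPA1A* and *HSPA1B* are near copies, as are the genes. The cluster printed for *HSPD1* belongs to the later of its annotated starts, and lies between that start and the start of *HSPE1* on the other strand, just outside the window of *HSPE1*. None of the 14 windows held the ATF4 element TGATGCAA or TTGCATCA, which 0.866% of all windows hold, or the TEAD element CATTCC or GGAATG, which 14.0% of all windows hold and through which YAP and TAZ act. A match or its absence in 300 bases describes these letters and says nothing about binding.

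On GRCh37, the build the reads were mapped to, *HSPA1A* (Entrez 3303, chromosome 6, 31783320 to 31785723) and *HSPA1B* (Entrez 3304, chromosome 6, 31795515 to 31798031) are neighbours of 1 exon each. *HSPA8* (3312) lies on chromosome 11 from 122928197 to 122933938, *HSPH1* (10808) on chromosome 13 from 31709110 to 31736525, *BAG3* (9531) on chromosome 10 from 121410892 to 121437331 and *DNAJB1* (3337) on chromosome 19 from 14625581 to 14671203. *HSP90AA1* (3320) lies on chromosome 14 from 102547079 to 102606036 and *HSPB1* (3315) on chromosome 7 from 75931990 to 75933612. *HSPD1* (3329) and *HSPE1* (3336) are on chromosome 2, from 198351308 to 198381461 on the minus strand and from 198364864 to 198368173 on the plus strand. All values are reads over the exons.

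Reads that fit several places in the genome were not counted, which bears on genes with close copies. The exons of each transcript were cut into windows of 75 bases, none of them across an exon junction. The study's methods give longer reads, so the shares are approximate. Looking for each window in GRCh37 left 26.2% of those of *HSPA1A* and 29.8% of those of *HSPA1B* at 1 place, because 1716 windows are the same in both genes. The levels of this pair therefore rest on that small part of each transcript, and reads from the common part went to neither gene. *HSPD1* kept 74.2% of its windows, with 307 also found in a copy within *CDH12*, and *HSPE1* kept 85.4%, with copies in *WDR89* and *CRTC3*. The other 6 genes kept between 88.3% and 100%. In addition the readthrough gene *HSPE1-MOB4* contains *HSPE1*, and how reads of the common exons were divided is not given in the sources used here.

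**Figure D1:**
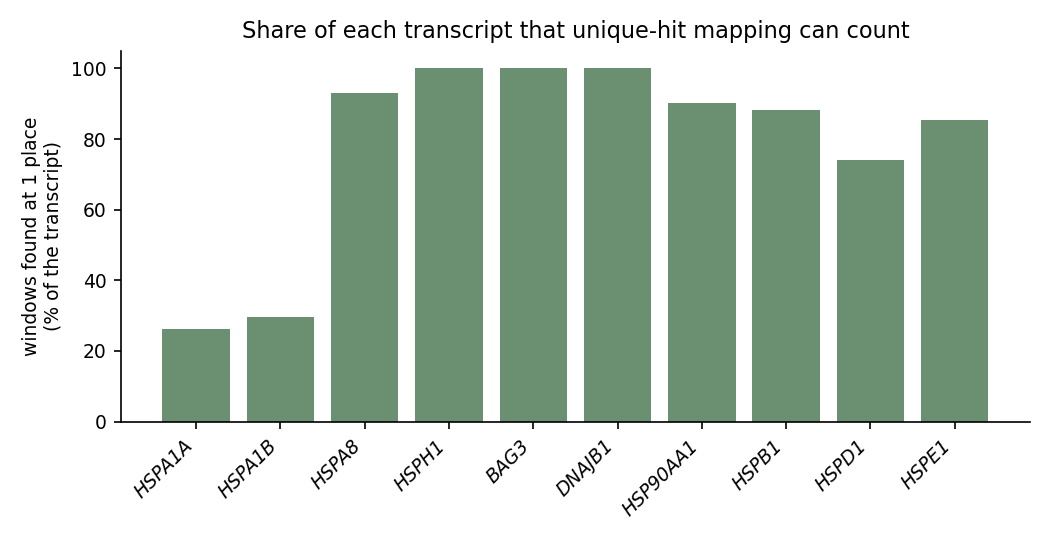
Share of the 75-base windows within the exons of each transcript that occur at 1 place in GRCh37 (bars, percent). *HSPA1A* (26.2%) and *HSPA1B* (29.8%) stand far below the other 8 genes, which range from 74.2% to 100%.

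Levels can be compared between genes only per length. In siCtrl cells with DMSO, *HSPA8*, the constitutive HSP70 that folds new proteins and uncoats vesicles, was the most abundant with 1733 CPM per kilobase of transcript (SD 4.93, n = 2), followed by *HSP90AA1*, the inducible cytosolic HSP90, with 676 (SD 28.3). *HSPD1*, the barrel of the mitochondrial chaperonin, had 475 CPM per kilobase, its lid *HSPE1* 247, *HSPA1B* 138 and *HSPB1* 122. Below 60 CPM per kilobase stood *BAG3* with 58.2, *DNAJB1* with 53.1, *HSPH1* with 46.9 and *HSPA1A* with 31.4. Per kilobase of uniquely placed sequence the stress-inducible pair would stand at 120 for *HSPA1A* and 463 for *HSPA1B*. With DMSO the 10 genes together took 0.834% of all reads in siCtrl cells, 0.604% after siY/T and 0.733% after siATF4 (means of 2 libraries, SD at most 0.0136). With Sorafenib the shares were 0.573%, 0.494% and 0.607%. The sum was thus highest in siCtrl cells with DMSO and lowest with both YAP/TAZ loss and Sorafenib. In siCtrl cells with DMSO most of its 8339 CPM came from *HSPA8* (3923), *HSP90AA1* (2181) and *HSPD1* (1066). The sum does not describe each gene, since *HSPA1A*, *HSPA1B*, *DNAJB1* and *HSPB1* had their highest mean in siY/T cells with DMSO.

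**Figure D2:**
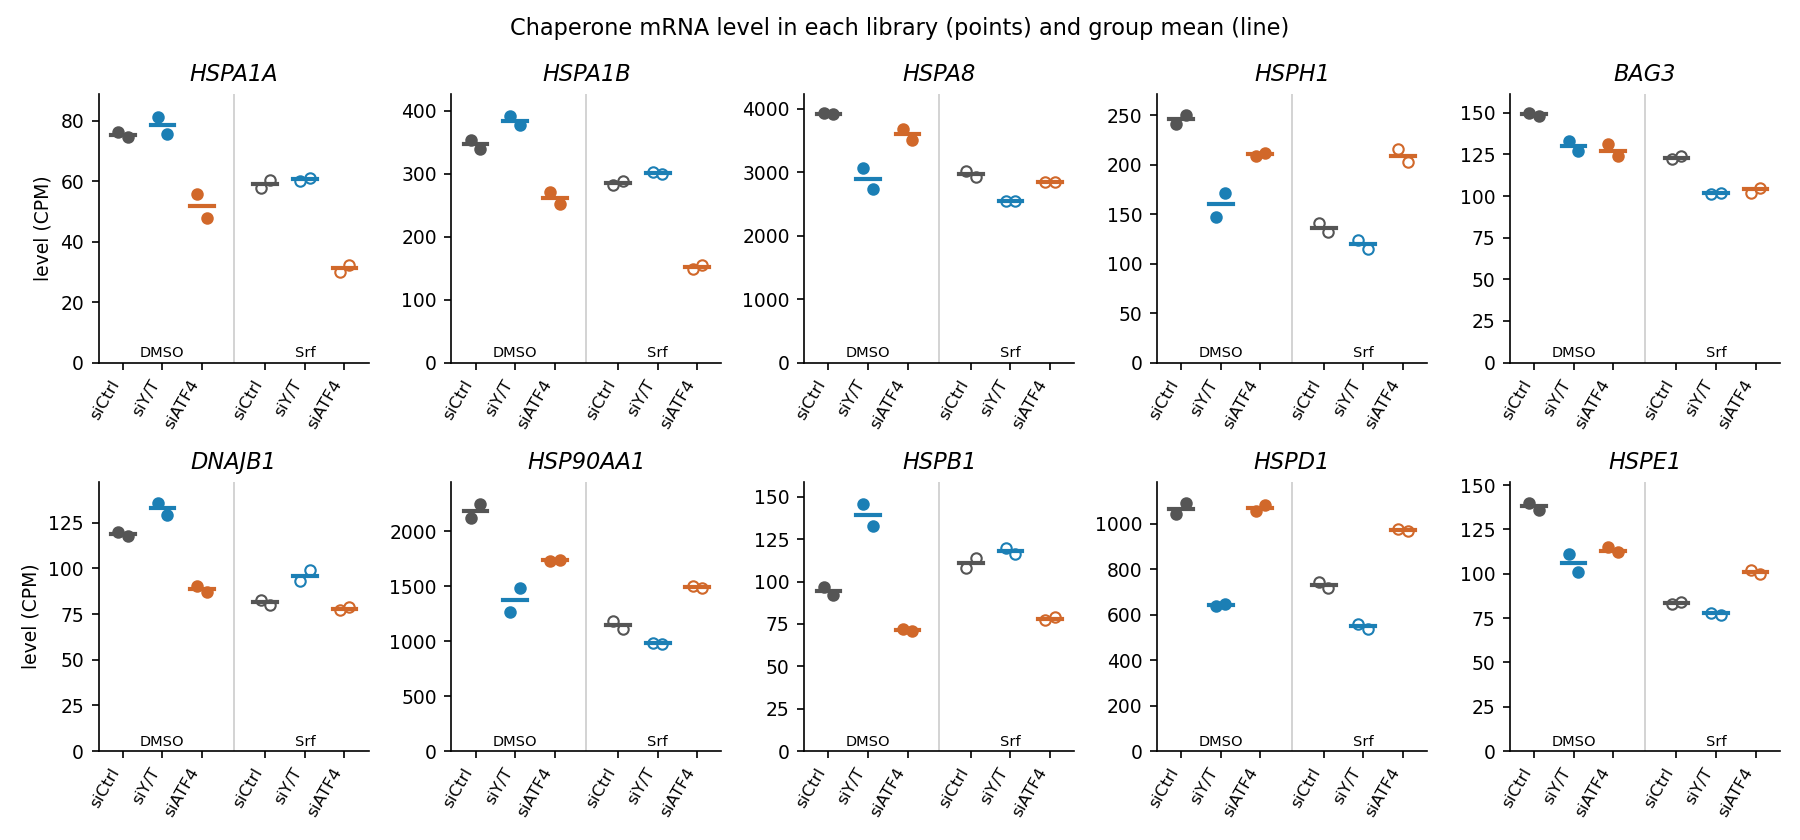
CPM of each chaperone in the 12 libraries, with DMSO groups on the left (filled points) and Srf groups on the right (open points) of each panel, and a line at the mean of the 2 libraries of a group. *HSPA1A* and *HSPA1B* are lowest in siATF4 Srf cells, whereas *HSPH1*, *HSP90AA1* and *HSPD1* are lowest in siY/T Srf cells and are higher in siATF4 Srf than in siCtrl Srf cells.

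The first comparison asked what Sorafenib did to these mRNAs in cells with all 3 factors present. In siCtrl cells the drug lowered *HSP90AA1*, *HSPH1* and *HSPE1*, and *HSPB1* stood apart as the 1 gene that was higher. *HSP90AA1* had 2117 and 2246 CPM in the DMSO libraries and 1184 and 1114 CPM in the Srf libraries. That is a log2 fold change of -0.92 (standard error 0.062, limma on log2(CPM + 0.5), Benjamini-Hochberg adjusted p = 7.3e-08), a level 47.3% lower. *HSPH1*, an HSP110 that releases nucleotide from HSP70, had 241 and 250 CPM without and 141 and 132 CPM with the drug (log2 fold change -0.85, standard error 0.066). *HSPE1* had 140 and 136 CPM without and 83.2 and 84.0 CPM with it (log2 fold change -0.72, standard error 0.049). In all 3 genes both Srf libraries lay below both DMSO libraries, and the share of all genes for which this holds was not counted.

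A gene was called raised or lowered at an unadjusted two-sided limma P under 0.05 and a log2 fold change of at least 0.58 in size, the thresholds of the study's methods. By that rule 3 of the 10 genes were lowered and 0 raised by Sorafenib in siCtrl cells, where 5.15% of all genes tested were lowered and 12.3% raised. Without the fold threshold, at limma P under 0.05 alone, 9 were lower and 1 higher, against 28.3% and 38.3% of all genes. Median log2 fold changes were -0.47 for the 10 genes and 0.05 for all genes. The other 6 that were lower did not reach the fold threshold, among them *HSPD1* (1043 and 1089 CPM without, 744 and 717 CPM with Srf, log2 fold change -0.54) and *DNAJB1*, the HSP40 that delivers substrate to HSP70 (120 and 118 CPM without, 82.9 and 80.1 CPM with Srf, -0.54). edgeR on the recovered reads also called 3 lowered and 0 raised. DESeq2 called 5 lowered and 0 raised, adding *DNAJB1* (-0.59) and *HSPD1* (-0.59), which stand close to the threshold. Of the 13515 genes limma lowered 696, edgeR 890 and DESeq2 909 there. Shares of all genes in this text are those of limma. Quantile normalization also put *HSPD1* past it (-0.63).

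The HSP70 proteins themselves moved less. *HSPA8* had 3931 and 3915 CPM in DMSO and 3016 and 2922 CPM in Srf (log2 fold change -0.40), *HSPA1A* had 76.2 and 74.6 against 57.8 and 60.5 CPM (-0.35), and *HSPA1B* had 354 and 339 against 282 and 288 CPM (-0.28). *BAG3*, which links HSP70 to selective autophagy, had 150 and 148 CPM against 122 and 124 CPM (-0.27). None of these 4 passed the fold threshold. Their libraries did not overlap, but the share of all genes for which this holds was not counted. *HSPB1*, a small heat shock protein that holds unfolded clients and stabilises actin, had 96.7 and 92.1 CPM in DMSO and 108 and 114 CPM in Srf, a log2 fold change of 0.23 (standard error 0.051, limma, Benjamini-Hochberg adjusted p = 0.00143).

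With YAP and TAZ depleted the drug lowered the chaperones by less than the fold threshold. By limma 0 were raised and 0 lowered, as by edgeR and DESeq2, where 5.83% of all genes were raised and 4.14% lowered. All 10 were lower and 0 higher at limma P under 0.05 alone, against 25.9% and 32.8% of all genes, with a median of -0.36. Over the alternatives listed at the end, *HSPA8* ranged from -0.28 to -0.07 and did not keep an adjusted p under 0.05 in all of them. *HSP90AA1* came nearest the threshold, with 1263 and 1480 CPM in DMSO and 985 and 973 CPM in Srf (log2 fold change -0.48). Without replicate 1 of siY/T DMSO, the lower of these libraries, its log2 fold change was -0.60 and passed. *HSPB1*, higher with the drug in siCtrl cells, had 146 and 133 CPM without and 120 and 116 CPM with Srf in siY/T cells (-0.24).

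With ATF4 depleted the pattern was another one. Sorafenib lowered 2 of the 10 genes, *HSPA1A* and *HSPA1B*, and raised 0 (limma, with edgeR and DESeq2 giving 2 and 0 too), where 2.95% of all genes were lowered and 5.68% raised. At limma P under 0.05 alone 8 were lower and 1 higher, against 25.3% and 31.4% of all genes, with a median of -0.20. *HSPA1A* had 55.9 and 47.8 CPM in DMSO and 29.9 and 32.4 CPM in Srf (log2 fold change -0.72). *HSPA1B* had 271 and 252 CPM and 149 and 155 CPM (-0.78). Of the genes that the drug had lowered most in siCtrl cells, *HSPH1* had 209 and 212 CPM in DMSO and 216 and 203 CPM in Srf, which overlap (log2 fold change -0.01, SE 0.066). *HSP90AA1* had 1733 and 1738 CPM, then 1504 and 1483 CPM (-0.22).

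**Figure D3:**
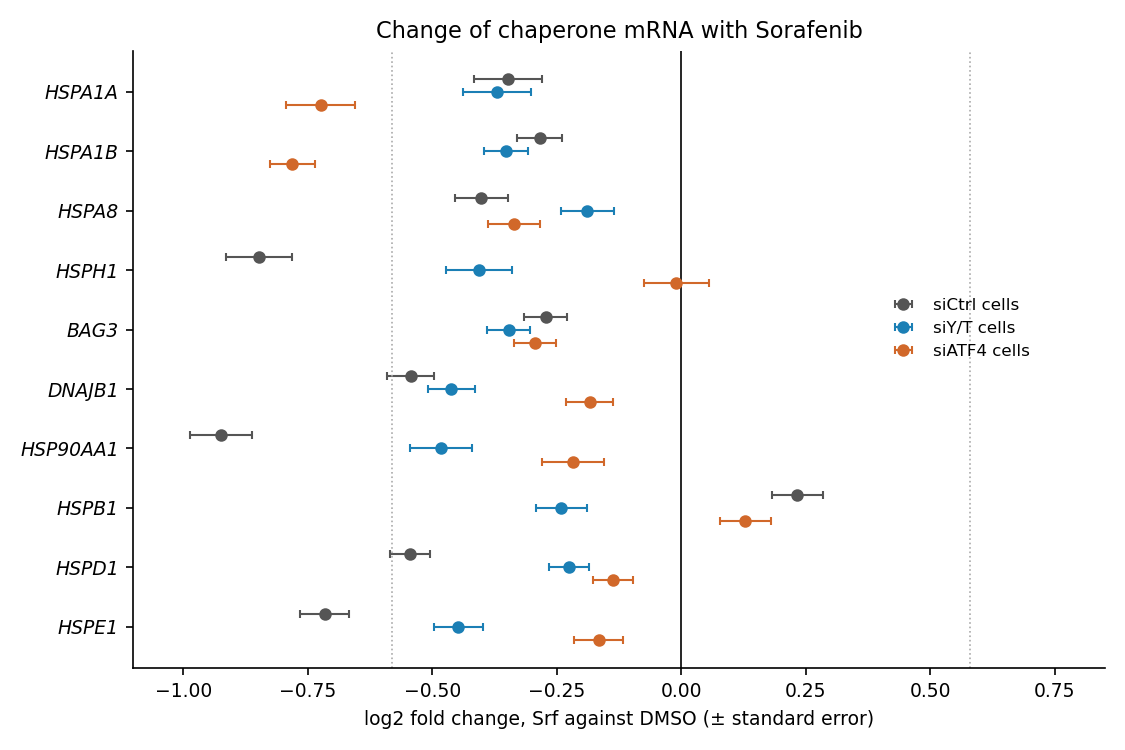
Log2 fold change of each chaperone with Sorafenib against DMSO (points) with its standard error (bars), in siCtrl, siY/T and siATF4 cells, dotted lines at the fold threshold of 0.58 in either direction. For *HSPH1* the points run from -0.85 in siCtrl to -0.01 in siATF4 cells, and for *HSPA1B* they run the other way, from -0.28 to -0.78.

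The next comparisons set each siRNA against siCtrl in the same medium, and those within a medium share their siCtrl libraries with each other and with the drug comparison above. In DMSO, siY/T lowered *HSPD1*, *HSP90AA1* and *HSPH1*, and *HSPB1* was higher. *HSPD1* had 1043 and 1089 CPM with siCtrl and 637 and 649 CPM with siY/T, or -0.73 as log2 fold change (SE 0.040, limma, Benjamini-Hochberg adjusted p = 1.49e-08). *HSP90AA1* had 2117 and 2246 CPM against 1263 and 1480 CPM (-0.67), and *HSPH1* had 241 and 250 CPM against 147 and 172 CPM (-0.63). The siY/T libraries of these latter genes differed from each other more than siCtrl libraries did. Without replicate 1 of siY/T DMSO the log2 fold changes were -0.56 for *HSP90AA1* and -0.51 for *HSPH1*, both short of the fold threshold, so that only *HSPD1* remained called. Quantile normalization also took *HSP90AA1* below it (-0.48).

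For *HSPB1* the siCtrl libraries gave 96.7 and 92.1 CPM and the siY/T libraries 146 and 133 CPM, a level 47.1% higher and a log2 fold change of 0.56 (SE 0.051, limma, Benjamini-Hochberg adjusted p = 1.09e-06). It lies just below the fold threshold and passed it without replicate 1 of siCtrl DMSO (0.59) or without replicate 2 of siY/T DMSO (0.62). The counts were 3 lowered and 0 raised (limma, with the same from edgeR and DESeq2), where by limma 3.61% of all genes were lowered and 11.0% raised. Of the 13515 genes limma lowered 488 and raised 1485, edgeR 739 and 1499, and DESeq2 771 and 1385. At limma P under 0.05 alone 6 were lower and 3 higher, against 24.7% and 39.6% of all genes. The 3 that were higher are *HSPB1*, *HSPA1B* (354 and 339 against 391 and 378 CPM) and *DNAJB1* (120 and 118 against 136 and 129 CPM). Over the alternatives listed at the end, the log2 fold change was as low as 0.07 for *HSPA1B* and 0.08 for *DNAJB1*. Neither kept an adjusted p under 0.05 in all of them. *HSPA1A*, with 76.2 and 74.6 against 81.4 and 75.6 CPM, overlapped between the groups, and its log2 fold change of 0.06 was below 0 with TMM scaling, edgeR and DESeq2.

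In Srf the siY/T differences were smaller for most of the 10 genes. They were larger for *BAG3* (log2 fold change -0.28 in Srf, -0.20 in DMSO) and *DNAJB1* (0.23 in Srf, 0.15 in DMSO). For neither of these did the test of the difference between Srf and DMSO, given below, pass. By limma, edgeR and DESeq2 0 of the 10 genes were raised and 0 lowered, where 6.11% and 3.84% of all genes were. At limma P under 0.05 alone 6 were lower and 1 higher, against 21.4% and 34.0% of all genes. *HSPD1* differed most, with 744 and 717 CPM in siCtrl and 560 and 539 CPM in siY/T cells (log2 fold change -0.41, standard error 0.040). *DNAJB1* was the 1 that was higher, with 82.9 and 80.1 CPM against 93.3 and 98.9 CPM (0.23).

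After ATF4 depletion in DMSO most of the chaperones were somewhat lower than in siCtrl cells. By limma, edgeR and DESeq2 0 were raised and 0 lowered, where 8.57% and 14.1% of all genes were. At limma P under 0.05 alone 9 were lower and 0 higher, against 35.8% and 34.8% of all genes, with a median of -0.30. *HSPA1A* came nearest, with 76.2 and 74.6 CPM in siCtrl and 55.9 and 47.8 CPM in siATF4 cells (log2 fold change -0.54), and passed the fold threshold without replicate 1 of siATF4 DMSO (-0.65). *HSPA1B* (354 and 339 against 271 and 252 CPM, -0.41), *DNAJB1* (120 and 118 against 90.3 and 86.9 CPM, -0.42) and *HSPB1* (96.7 and 92.1 against 72.0 and 71.1 CPM, -0.40) followed. *HSPD1* was the exception with 1043 and 1089 CPM in siCtrl and 1058 and 1082 CPM in siATF4 cells, which overlap.

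In Srf some of the 10 genes were lower and some higher after the same depletion. At limma P under 0.05 alone 38.3% of all genes were lower and 36.7% higher there. The inducible HSP70 pair was lowered, and *HSPH1* was raised. *HSPA1B* had 282 and 288 CPM in siCtrl and 149 and 155 CPM after siATF4, which makes a log2 fold change of -0.90 (SE 0.045, limma, Benjamini-Hochberg adjusted p = 1.29e-09). *HSPA1A* had 57.8 and 60.5 CPM against 29.9 and 32.4 CPM (-0.92). *HSPH1* had 141 and 132 CPM against 216 and 203 CPM (0.62, standard error 0.066, limma, Benjamini-Hochberg adjusted p = 2.03e-06). This call stands close to the threshold and was lost without replicate 2 of siCtrl Srf (0.57), without replicate 1 of siATF4 Srf (0.57) and under quantile normalization (0.56).

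Below the fold threshold, *HSPD1* had 744 and 717 CPM in siCtrl and 976 and 970 CPM in siATF4 cells (log2 fold change 0.41), and *HSP90AA1* had 1184 and 1114 CPM against 1504 and 1483 CPM (0.38). *HSPE1* had 83.2 and 84.0 CPM against 102 and 99.9 CPM (0.27). These 3 genes and *HSPH1* are the 4 that were higher at limma P under 0.05 alone. Against them stood 4 that were lower, the HSP70 pair, *HSPB1* (108 and 114 against 77.3 and 79.1 CPM, -0.50) and *BAG3* (122 and 124 against 102 and 105 CPM, -0.25). Of all genes 36.7% were higher and 38.3% lower by that rule. With the fold threshold 2 were lowered and 1 raised, where 18.7% of all genes were lowered and 10.3% raised, so the 10 genes were called about as often as genes at large and their median was -0.06. edgeR and DESeq2 gave the same counts of 2 and 1.

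**Figure D4:**
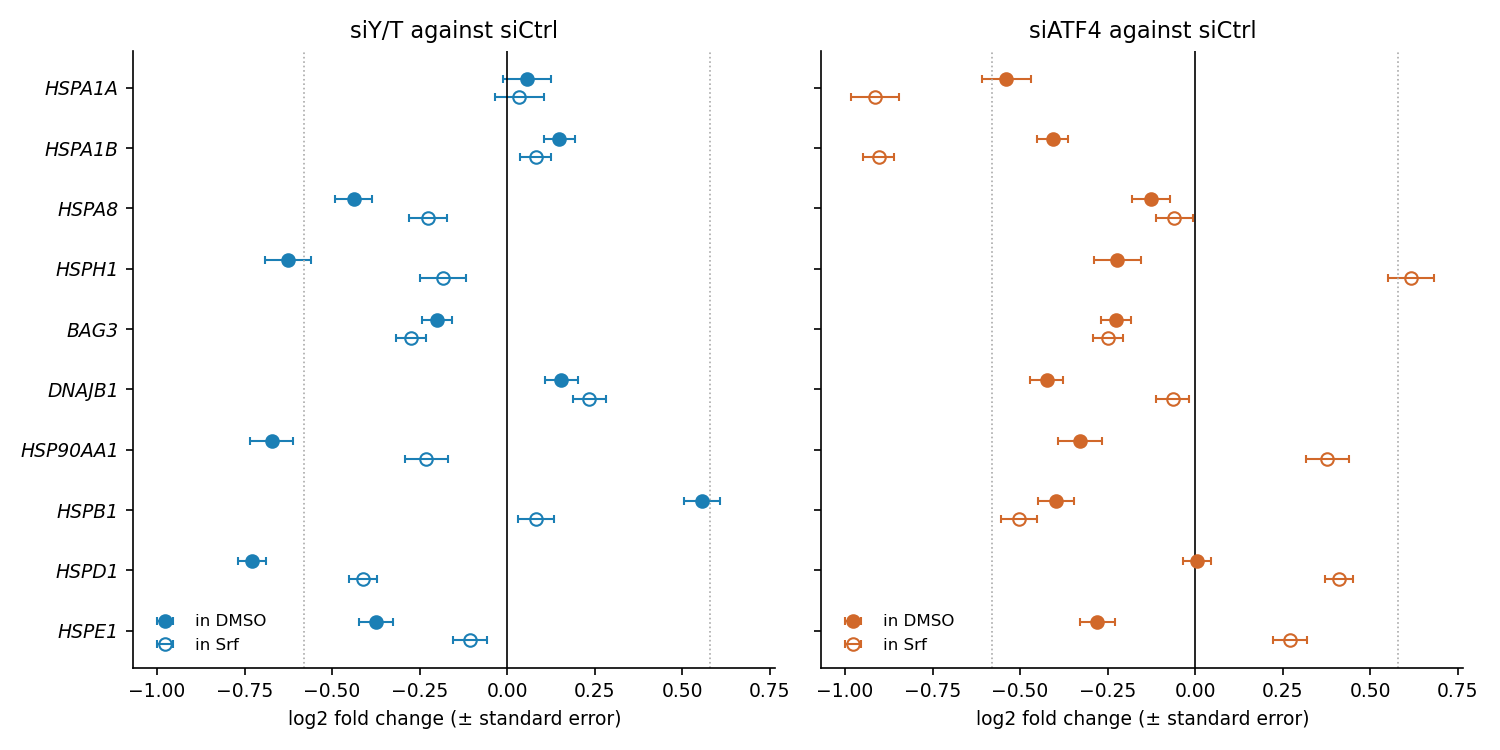
Log2 fold change of each chaperone with siY/T (left) and siATF4 (right) against siCtrl, in DMSO (filled) and Srf (open), with standard errors and dotted lines at the fold threshold of 0.58 in either direction. With siATF4 the open points of *HSPA1A* and *HSPA1B* lie at -0.92 and -0.90 and that of *HSPH1* at 0.62.

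Whether the effect of an siRNA differed between Srf and DMSO was tested as a contrast of its own, called at a Benjamini-Hochberg adjusted limma P under 0.05, and the same contrast is the difference between the drug's effects in the siRNA and in siCtrl cells. For siATF4 it was above 0 for 5 genes and below 0 for 2, where 19.3% and 21.8% of all genes were. The 5 were *HSPH1* with 0.84 (standard error 0.094, limma, Benjamini-Hochberg adjusted p = 2.45e-05), *HSP90AA1* with 0.71, *HSPE1* with 0.55, *HSPD1* with 0.41 and *DNAJB1* with 0.36, so that the difference the drug made to these mRNAs was smaller in siATF4 than in siCtrl cells. The 2 below 0 were *HSPA1B* with -0.50 (standard error 0.064, limma, Benjamini-Hochberg adjusted p = 6.77e-05) and *HSPA1A* with -0.38. *HSPA8*, *BAG3* and *HSPB1* did not pass. For siY/T the contrast was above 0 for 4 genes and below 0 for 1, where 7.81% and 14.2% of all genes were. Those above were *HSP90AA1* and *HSPH1* with 0.44 each, *HSPD1* with 0.32 and *HSPE1* with 0.27, and *HSPB1* was below with -0.47. *HSPA8* (0.21) did not pass, but did under quantile normalization (0.27), by DESeq2 (0.23) and without replicate 1 of siY/T DMSO (0.30). *HSPE1* did not pass without replicate 1 of siCtrl DMSO (0.25), of siCtrl Srf (0.26) or of siY/T Srf (0.26).

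The order of the 6 groups is given next by level, from the same libraries, so it is not a separate observation. *HSPA1B* ran from siY/T DMSO (384 CPM, SD 9.54) over siCtrl DMSO (347, SD 10.2), siY/T Srf (301, SD 2.75), siCtrl Srf (285, SD 4.25) and siATF4 DMSO (261, SD 14.0) to siATF4 Srf (152, SD 4.08), with no overlap between neighbours. *HSPA1A* had the same order, with neighbours overlapping between siY/T and siCtrl in DMSO and in Srf. *HSP90AA1* ran from siCtrl DMSO (2181 CPM, SD 91.4) over siATF4 DMSO (1736, SD 2.89), siATF4 Srf (1493, SD 14.9), siY/T DMSO (1371, SD 154) and siCtrl Srf (1149, SD 49.0) to siY/T Srf (979, SD 8.48). *HSPH1* followed this order with the siATF4 groups overlapping, and in *HSPA8* the siY/T DMSO libraries overlapped with those of siCtrl Srf and of siATF4 Srf. *BAG3* moved least, between 149 CPM in siCtrl DMSO and 102 CPM in siY/T Srf, with overlaps between most neighbouring groups.

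Ratios within pairs that work together are given as a description, without a test. *HSPD1* to *HSPE1*, the barrel and the lid of the mitochondrial chaperonin, stood with DMSO at 7.75 (SD 0.39, n = 2) after siCtrl, 6.07 (SD 0.501) after siY/T and 9.44 (SD 0.362) after siATF4, and with Srf at 8.75, 7.08 and 9.64 in the same order. The siATF4 libraries lay above and the siY/T libraries below both siCtrl libraries in each medium. *HSPE1-MOB4*, which shares exons with *HSPE1*, was at 63.4 CPM with siCtrl and 63.9 CPM with siATF4 under the drug (log2 fold change 0.01), while *HSPE1* differed by 0.27 there. In other comparisons both genes were lower together. With siCtrl, *HSPE1-MOB4* went from 91.6 CPM in DMSO to 63.4 CPM in Srf, and *HSPE1* from 138 to 83.6 CPM. In DMSO, *HSPE1-MOB4* stood at 67.8 CPM after siY/T and 72.3 CPM after siATF4, and *HSPE1* at 106 and 113 CPM. The inducible HSP70 pair summed to 10.8% of the *HSPA8* level after siCtrl, 16.0% after siY/T and 8.71% after siATF4 with DMSO, and to 6.43% after siATF4 with Srf, without correction for windows lost to mapping. *HSPA1B* to *HSPA1A* held between 4.55 and 5.26 in all 12 libraries.

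Outside the 10 genes, 67 related genes in 9 lists were examined, lists that were written with results of these data known. The cytosolic chaperones, cochaperones and heat shock factors, 44 genes of which 38 were tested, had 8 lowered by Sorafenib in siCtrl cells (5.15% of all genes were) and a median of -0.35. At limma P under 0.05 alone 28 were lower and 4 higher, against 28.3% and 38.3% of all genes. Of HSP90 and its cochaperones 4 of 7 were lowered, among them *STIP1*, which passes clients from HSP70 to HSP90 (660 and 673 against 356 and 368 CPM, log2 fold change -0.88), *CHORDC1* (-0.84) and the immunophilin *FKBP4* (-0.76). *DNAJA1*, the abundant cytosolic HSP40 (-0.86), and *HSPA14*, an HSP70 at the ribosome (-0.70), were lowered too. TRiC is the cytosolic chaperonin that folds actin and tubulin. All 8 of its subunits were lower at limma P under 0.05 alone with a median of -0.51, and *CCT6A* (-0.71) and *CCT5* (-0.61) were lowered by the fold rule. In siY/T DMSO cells *FKBP4* was lowered (190 and 194 against 90.4 and 79.7 CPM, -1.17), as were *DNAJB6* (-0.84), *HSPB8* (-0.83) and *CHORDC1* (-0.65).

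With siATF4 in Srf, 6 of the 38 cytosolic genes were raised and 3 lowered, with a median of 0.27, where 10.3% and 18.7% of all genes were called. At limma P under 0.05 alone 26 were higher and 4 lower, against 36.7% and 38.3% of all genes. *HSPA14* (30.2 and 29.2 against 62.3 and 61.2 CPM, log2 fold change 1.04), *DNAJB6*, an HSP40 that suppresses aggregation (95.8 and 98.5 against 193 and 200 CPM, 1.01) and *HSPA4L* (0.72) were raised. *HSPA2* (-0.97) and *DNAJB2* (-0.79) were lowered. All 8 TRiC subunits were higher at limma P under 0.05 alone, with a median of 0.43, each short of the fold threshold. The contrast between the siATF4 effects in Srf and DMSO was above 0 for all 8, where 19.3% of all genes were. That contrast includes the same Srf libraries, so it is not a separate observation. The direction of the TRiC subunits was that of *HSPH1*, *HSP90AA1* and *HSPD1*, opposite to that of the inducible HSP70 pair. In siATF4 DMSO cells 3 cytosolic genes were raised and 3 lowered, where 8.57% and 14.1% of all genes were, with a median of -0.01. Of 6 other HSP70 cochaperones 1, the exchange factor *BAG1*, was raised by siATF4 in DMSO (0.64) and in Srf (0.60). Of 6 other small heat shock proteins 2 reached the level for testing. *CRYAB*, a small heat shock protein at about 1 CPM, was lowered by siATF4 in DMSO (0.914 and 0.865 against 0.0857 and 0.0594 CPM, -1.28) and in Srf (-1.06). *HSPB8*, the partner of BAG3, was raised by siATF4 in DMSO (7.52 and 7.86 against 13.4 and 12.5 CPM, 0.72) and lowered by siY/T in Srf (10.1 and 9.40 against 4.45 and 4.75 CPM, -1.01).

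Of 10 other mitochondrial chaperones and proteases, *HSPA9*, the mitochondrial HSP70, was lowered by siY/T in DMSO (912 and 930 against 569 and 558 CPM, -0.71), as was its exchange factor *GRPEL1* (-0.60). Of all genes 3.61% were lowered there. Sorafenib in siCtrl cells lowered 1 of this list, *GRPEL1* (-0.80), where 5.15% of all genes were lowered. The list median was -0.11, against -0.54 for *HSPD1* and -0.72 for *HSPE1*. With siATF4 the list median was 0.39 in DMSO and 0.39 in Srf, with 1 raised each time, *HSCB* (0.66) and *DNAJA3* (0.58), where 8.57% and 10.3% of all genes were raised. At limma P under 0.05 alone 8 of these 10 were higher in DMSO and 9 in Srf, with 0 lower. Of all genes 34.8% and 36.7% were higher by that rule, and 35.8% and 38.3% lower. Among 13 ER chaperones, which answer to the unfolded protein response rather than to HSF1, Sorafenib lowered *MANF* (-0.60) in siCtrl cells, and 9 were lower at limma P under 0.05 alone, as were 28.3% of all genes. With siATF4 in Srf, where 10.3% of all genes were raised and 18.7% lowered, 3 were raised, *SDF2L1* (0.90), *DNAJB11* (0.82) and *MANF* (0.65), and 1 was lowered.

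**Figure D5:**
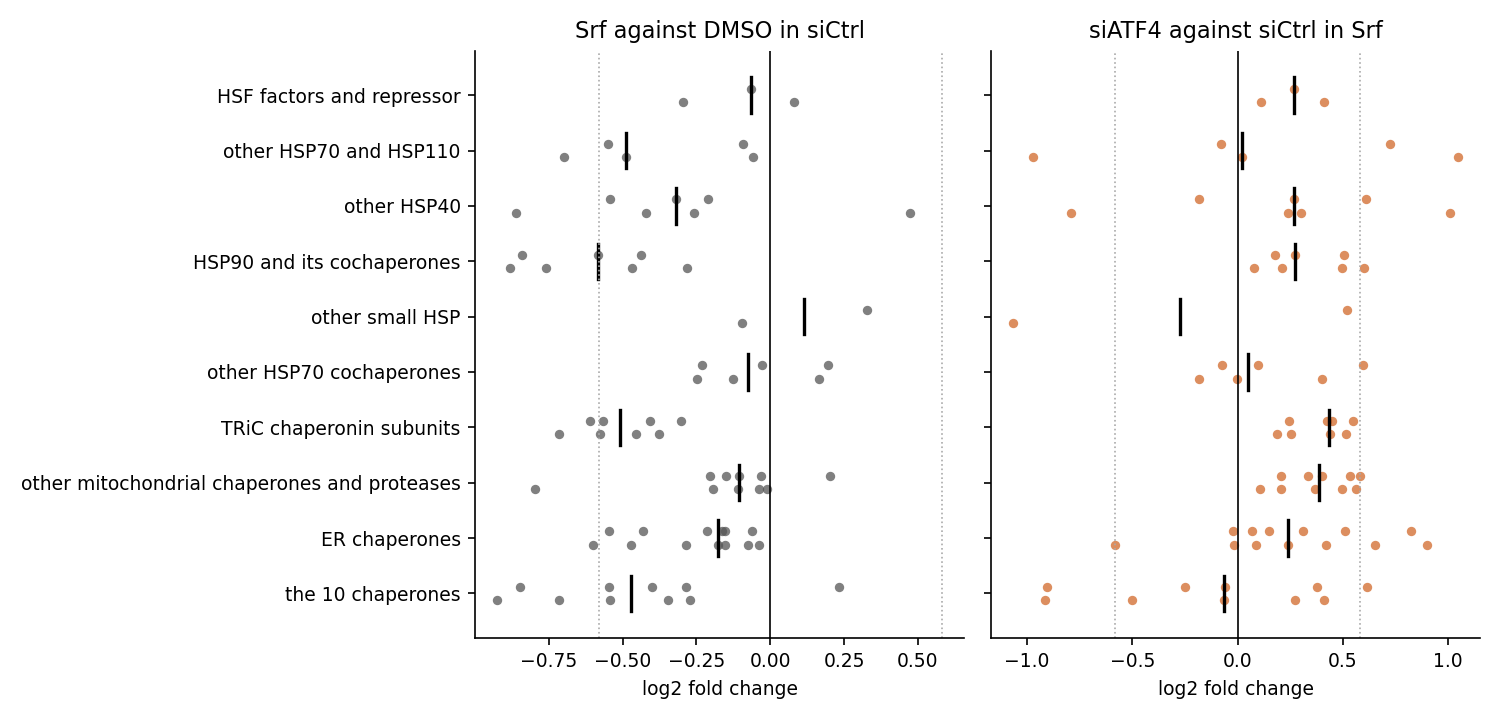
Log2 fold changes of the genes tested in each list (points) and their median (black line), for Sorafenib in siCtrl cells and for siATF4 in Srf, with the 10 chaperones in the lowest row and dotted lines at 0.58 in either direction. Medians of the TRiC subunits lie at -0.51 on the left and 0.43 on the right, while the 10 chaperones have -0.47 and -0.06.

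The mRNA of the factors that drive these genes did not pass the fold threshold in any of the 7 comparisons. In siCtrl cells *HSF1* had 83.2 and 81.0 CPM with DMSO and 83.4 and 90.6 CPM with Srf (log2 fold change 0.08, limma, Benjamini-Hochberg adjusted p = 0.214). It was higher in siATF4 cells, 108 and 105 CPM in DMSO (0.38) and 101 and 109 CPM in Srf (0.27), and in siY/T cells (0.25 in DMSO, 0.20 in Srf), always below the fold threshold. *HSF2* ranged between log2 fold changes of -0.30 (siY/T in DMSO) and 0.21 (Srf in siY/T cells), and *HSBP1*, which binds HSF1 trimers, had -0.29 with Srf in siCtrl cells and 0.41 with siATF4 in Srf. HSF1 is controlled mostly by its assembly and modification, which mRNA levels do not show. *HSPA6*, an HSP70 with almost no expression outside severe stress, was below the level needed for testing. It had 43 and 53 reads in siATF4 DMSO cells (0.921 and 1.05 CPM) and at most 13 reads in any other library, with 4 and 3 in siCtrl DMSO and 0 in both siY/T Srf libraries.

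Genes other than the 10 with the most similar profile were sought for the 4 chaperones whose group means spanned at least 1 on the log2 scale, namely *HSPA1B* (1.34), *HSPA1A* (1.32), *HSP90AA1* (1.16) and *HSPH1* (1.03). Likeness was the root mean square difference between the centred log2 means of the 6 groups, over 11142 genes that averaged 5 CPM or more. Nearest to *HSPA1B* were *ORMDL2* (0.065), *CMTM3* and *FRMD8* (0.109 each), and nearest to *HSPA1A* were *ORMDL2* (0.075), *PLEKHB2* (0.100) and *FRMD8* (0.106), with the 2 chaperones at 0.042 from each other. Nearest to *HSPH1* were *CSE1L* (0.061), *TIPIN* (0.073) and *GEN1* (0.074), and nearest to *HSP90AA1* were *HAT1* (0.080), *ANP32E* (0.091) and *STIP1* (0.092). *HSPH1* and *HSP90AA1* were 0.099 apart, and *HSPA1A* was 0.626 from *HSPH1*, so the inducible HSP70 genes and their exchange factor followed different courses over these 6 groups.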

How the data were processed

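Per the labels and the study's methods, STAR placed the single-end reads on hg19 (uniquely placed reads only) and QuasR counted them over RefSeq mRNA exons. The authors deposited CPM in 1 table of 26258 Entrez identifiers. The strand setting of the counting is not given in the sources used here. Symbols came from RefSeq (GRCh38.p14, names only) for 26111 identifiers. All values were whole multiples of 1 read within 0.001 read, so reads were recovered. The 13515 genes that reached 1 CPM in 2 or more libraries were fitted as log2(CPM + 0.5) with limma 3.58.1 (R 4.3.3, 1 coefficient per group, trended variance, all 12 libraries), with Benjamini-Hochberg adjustment. This scale understates changes of low genes. The steps were tested on simulated reads.

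The 10 genes and the lists were chosen with earlier results of these data known. Named genes were the 10, the siRNA targets, up to 3 called genes per list and comparison with a mean of at least 5 CPM, HSF1, HSF2, HSBP1, genes sharing reads with the 10, and the 3 nearest profiles. *HSPA6* and *CRYAB* were named after their values were seen. Alternatives were pseudocounts of 0.1 and 1, no filter and a filter of 5 CPM, TMM scaling, quantile normalization, a replicate block, fits restricted to the groups in question, DESeq2 1.42.0 and edgeR 4.0.16 on the recovered reads, adjusted p-values, and leaving out each library. Depth was 41408348 to 53619732 reads. Tables and figures were made in Python 3.11.15 (matplotlib 3.10.9, pandas 2.3.3, numpy 2.4.6). The study's methods name biological triplicates, whereas 2 libraries per group were analysed.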

Additional observations from a re-analysis of the deposited data

Results flagged for a closer look

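Differences between effects of the same siRNA in Srf and in DMSO passed limma's test of the difference (Benjamini-Hochberg adjusted p under 0.05) for 7 of the 10 genes with siATF4 and 5 with siY/T, and the cause was not tested. For siATF4, where 19.3% of all genes were above 0 and 21.8% below, the differences on the log2 scale were 0.838 for *HSPH1*, 0.707 for *HSP90AA1*, 0.550 for *HSPE1*, 0.407 for *HSPD1* and 0.359 for *DNAJB1*, and -0.497 for *HSPA1B* and -0.376 for *HSPA1A*. For siY/T, where 7.81% were above and 14.2% below, they were 0.443 for *HSP90AA1*, 0.442 for *HSPH1*, 0.319 for *HSPD1*, 0.267 for *HSPE1* and -0.474 for *HSPB1*. Both sets share the siCtrl libraries, so they are not independent of each other. With 2 libraries per group, no group could be examined for a single library far from the rest.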

How the results depend on the processing

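Of 2050 recomputed values for the 10 genes in 9 contrasts, 2016 kept their direction and their side of the threshold, 9 lost and 10 gained a call, and 15 changed direction. Many of these could not change direction. The filters, adjusted p-values, the replicate block and the restricted fits keep the log2 fold change. So does leaving out a library of a group outside the contrast. The tally is therefore no measure of stability. Counts at limma P under 0.05 alone were not recomputed. In siY/T against siCtrl in DMSO, the 3 lowered genes ranged from 1 to 3 and the raised from 0 to 1 when single libraries were left out, and quantile normalization took *HSP90AA1* to -0.48. With siATF4 in DMSO the lowered ranged from 0 to 1. With siATF4 in Srf the raised ranged from 0 to 1 and were 0 under quantile normalization. With Sorafenib in siCtrl cells the lowered were 5 by DESeq2, and in siY/T cells they ranged from 0 to 1 when single libraries were left out. Where 1 library was left out of a group, the lone library was assumed to vary like those of the other groups. The values that changed direction were those of *HSPA1A* with siY/T in DMSO (-0.003 with TMM, -0.002 with edgeR, -0.017 with DESeq2) and in Srf (-0.020, -0.021 and -0.018 likewise, -0.037 under quantile normalization), and *HSPD1* with siATF4 in DMSO (-0.130 under quantile normalization, with a limma Benjamini-Hochberg adjusted p = 0.0143, and between -0.026 and 0.036 with 1 library left out). With single libraries left out, *HSPH1* with Sorafenib in siATF4 cells ranged from -0.053 to 0.033, the siY/T contrast of *HSPA1A* from -0.075 to 0.031, and the siATF4 contrast of *BAG3* from -0.059 to 0.016. The causes were not tested.

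Replicate numbers were not taken as pairing the samples, since the labels tie no number to a shared batch and a group has only 2. The replicate differences of 15 pairs of groups correlated between -0.282 and 0.193. The 4 above 0.1 lay within a medium, 3 of them in Srf (0.100, 0.118 and 0.164), while pairs across media reached at most 0.0054. The replicate block changed no call among the 10 genes, leaving 3 lowered in siY/T DMSO and 3 with Sorafenib in siCtrl cells. In this balanced design it could change only the p-values. Over all genes, the 488 lowered by siY/T in DMSO became 789 under quantile normalization, 739 by edgeR and 771 by DESeq2. Quantile normalization moved the lowered share of all calls from 24.7% to 43.0% for siY/T in DMSO (35.8% by DESeq2), from 64.6% to 51.5% for siATF4 in Srf, and with Sorafenib from 29.5% to 47.7% in siCtrl, 41.5% to 53.1% in siY/T and 34.2% to 45.3% in siATF4 cells. Precision is limited by 2 libraries per group, and the values of *HSPA1A* and *HSPA1B* describe only the uniquely placed part of each transcript.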
